A study of Mus musculus with 21 samples.

Results

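Male germ cells lacking Tex15 (KO) at embryonic day 16.5 (E16.5) were compared with KO cells at embryonic day 18.5 (E18.5). The members were the 6 KO libraries of these ages, 3 per age, of 21 libraries in the whole series; they were found from the genotype and age in the labels, and their columns were joined by row name. All groups used here came from crosses between Tex15 heterozygous mice of mixed strain background, and all cells were male germ cells sorted by the green fluorescence of Oct4-GFP. KO cells are those labelled as Tex15 knockout, and the 3 E16.5 and 3 E18.5 libraries of heterozygous cells (HT, Tex15+/-) served as the second view of the same age step. The design calls the 3 libraries of a group biological replicates; whether a library came from 1 embryo or from pooled embryos is not given in the sources used here.

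Fetal male germ cells leave the pluripotent-like state of their precursors, stop dividing and become prospermatogonia. In this window DNA methylation is laid down again after its genome-wide erasure, and PIWI proteins loaded with small piRNAs direct it to young transposons such as LINE-1 (L1). Tex15 is known to act in this nuclear arm of the piRNA pathway, downstream of PIWIL4, and in meiotic recombination. The comparison asks which changes of these 2 days still take place without Tex15, and which repeats rise.

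The 6 KO libraries held 8522271 to 11703321 gene counts and 9793123 to 12879346 counts in repeat names. Repeat names took 45.9% to 51.1% of the counts at E16.5 and 56.0% to 60.2% at E18.5, and 3410 to 4043 genes were at 0 at E16.5 against 2359 to 2608 at E18.5. In the HT libraries repeat names took 41.9% to 48.0% and then 49.9% to 57.6%. There 3507 to 5815 genes were at 0 at E16.5 and 2555 to 2687 at E18.5, so both shifts were also seen in HT. Each age was deposited in a table of its own, so age cannot be told apart from any difference in how the tables or their libraries were made. On the first principal component of the 12 HT and KO libraries, which held 69.5% of the variance, E16.5 KO replicates 1 and 2 were at -76.2 and -75.7 and the E18.5 KO libraries at 68.5 to 82.0. E16.5 KO replicate 3 stood between them at 10.2, and E16.5 HT replicates 1, 2 and 3 were spread at -183, -85.0 and -8.51, the last nearest to the E18.5 HT libraries (55.7 to 71.6). Counts of calls moved with these libraries, and the range over fits that each left out 1 library is given beside many of them.

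Tex15 itself was low in every KO library. The E16.5 KO libraries held 4.12, 3.38 and 4.27 CPM (normalised counts relative to a library's gene counts, the unit of gene levels below) of Tex15 and the E18.5 KO libraries 3.15, 3.58 and 3.15 CPM. The ages overlapped (log2 fold change -0.21, SE 0.33, adjusted p = 0.629). HT cells held 1090 CPM at E16.5 (SD 125, n = 3) and 854 CPM at E18.5 (SD 40.5, n = 3), so the targeted gene went with the labels.

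KO germ cells changed broadly between the 2 ages. By edgeR's quasi-likelihood test, 6602 of 17569 genes tested (37.6%) passed an adjusted p of 0.05, of which 3441 (19.6%) were higher and 3161 (18.0%) lower at E18.5. The higher genes started low, at a median of 3.09 CPM at E16.5 and 9.15 CPM at E18.5, and 24.4% of them were under 1 CPM at E16.5. The lower genes were abundant, at a median of 74.6 CPM and then 40.6 CPM. Over all genes tested the medians were 14.5 and 15.2 CPM, and 7.61% were under 1 CPM at E16.5. A gene that low at E16.5 passes the count filter mostly through E18.5, so it could hardly be called lower. The contrast in starting level is therefore in part set by the filter. On the log2 scale the median change was 1.54 in the higher genes and -0.80 in the lower genes. The split depended on scaling: upper quartile factors moved the median of all genes from 0.04 to 0.26 and gave 4309 higher and 1719 lower genes. The count also depended on single libraries. Without E16.5 KO replicate 3, 10533 genes passed, and without E16.5 KO replicates 1 or 2 or E18.5 KO replicates 1 or 3, 3680, 3371, 4109 and 3776. A core of 1410 higher (8.03%) and 1373 lower genes (7.81%) passed with all 6 libraries and without any 1 of them.

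Most genes that changed in KO cells moved in the same direction in HT cells, whose libraries the KO comparison does not share. Among the 17095 genes tested in both, 98.7% of the genes called in KO had the same sign in HT, against 87.3% of all genes. The log2 fold changes of the 2 genotypes had a Pearson r of 0.879 and a Spearman rho of 0.883 across genes, which are not independent replicates, and both genotypes share the split into 2 tables. In HT cells 2252 of 17626 genes passed (12.8%), with 912 higher (5.17%) and 1340 lower (7.6%). The genes called in both genotypes numbered 1917, which is 30.1% of the KO calls and 87.9% of the HT calls, and each moved the same way. Without E16.5 HT replicate 1, 4008 genes were called the same way in both, 62.1% of the KO calls and 78.7% of the HT calls. The HT count rested on single libraries. It was 5304 without E16.5 HT replicate 1, 8545 without replicate 3 of that age, and 0 without E16.5 HT replicate 2 or any 1 of the E18.5 HT libraries.

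**Figure D1:**
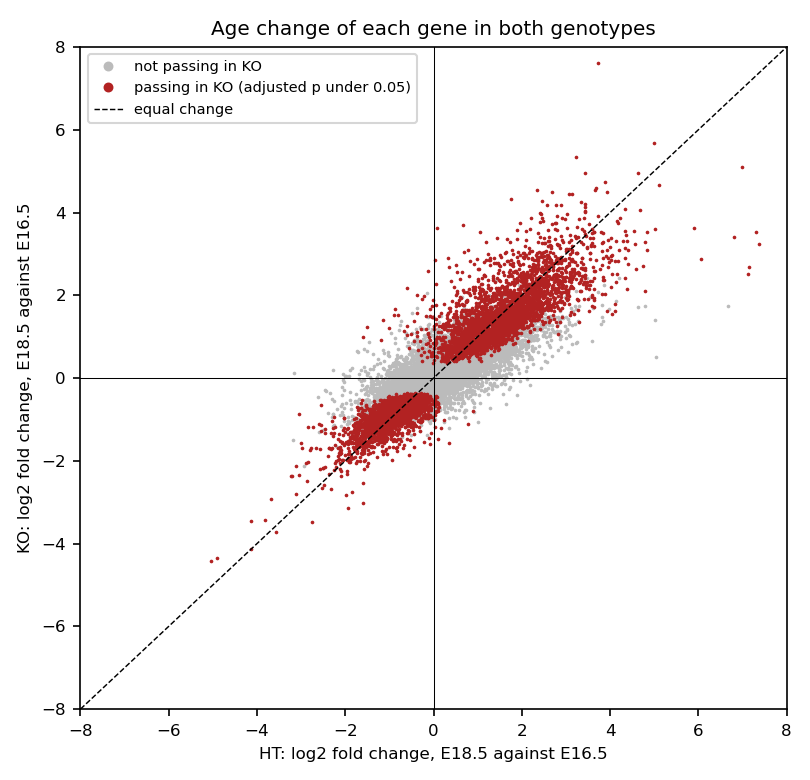
Each point is 1 gene tested in both genotypes; the x axis is the log2 fold change of E18.5 against E16.5 in HT cells and the y axis that in KO cells, with genes that passed in KO in red and the dashed line marking equal change. Of the red genes 98.7% lie on the same side of 0 in both genotypes.

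The difference of the 2 age changes was also tested gene by gene. In edgeR 0 of 18554 genes passed, and 382 were under 0.05 before adjustment, a smaller share of the genes than 0.05. Without E16.5 HT replicate 3, 2198 of 19038 were under 0.05 before adjustment and 0 passed. With limma-voom 0 passed, and with DESeq2 4. DESeq2's 4 genes, chosen after their values were seen, were Lair1 (a difference of 1.80 on the log2 scale in edgeR), Ms4a6d (1.79), 6820431F20Rik (1.20) and Gm15698 (2.71). Lair1, an inhibitory receptor of immune cells, was at 10.7, 11.4 and 11.8 CPM in KO cells at E16.5 and at 37.6, 19.8 and 28.7 CPM at E18.5. A difference that misses the threshold does not show that the 2 genotypes changed alike.

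Among abundant genes the steepest loss was that of Dppa3, a marker of early germ cells that protects methylation in the zygote. Its level was 1050, 942 and 141 CPM in the E16.5 KO libraries and 15.4, 31.2 and 49.6 CPM in the E18.5 KO libraries. Replicate 3 was the lowest E16.5 library, and the ages did not overlap (log2 fold change -4.42, SE 0.67, adjusted p = 0.00337). In HT cells the change was -5.05. Ifitm2, an interferon-inducible membrane protein gene also active in early germ cells, held 366, 443 and 109 CPM at E16.5 and 7.56, 25.1 and 34.4 CPM at E18.5. It fell by 3.72 on the log2 scale (SE 0.57), and its relatives Ifitm1 and Ifitm3 had changes of -3.46 and -2.94. Ifitm3 was at -3.58 without E18.5 KO replicate 3.

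Other abundant genes that fell had varied roles. Strc, which encodes stereocilin of the inner ear, was at 236, 260 and 120 CPM and then at 9.76, 19.3 and 24.4 CPM (log2 fold change -3.48, SE 0.36, adjusted p = 0.00325). Sdc4, a cell surface proteoglycan, was among the most abundant of them, with 1630, 1620 and 787 CPM at E16.5. At E18.5 it held 154, 258 and 209 CPM (log2 fold change -2.66, SE 0.29). Dnd1, an RNA-binding partner of the NANOS proteins, fell by 2.31, and Slc35f2, Taf7 and Aldh7a1 by 2.48, 2.05 and 2.04. In each of these genes E16.5 KO replicate 3 was the lowest library of its age, and no E18.5 library reached it.

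The abundant genes that rose most included Cpeb2, a regulator of mRNA translation. Its level was 22.3, 30.2 and 58.2 CPM at E16.5 and 327, 184 and 182 CPM at E18.5. Replicate 3 was the highest E16.5 library and the ages stayed apart (log2 fold change 2.68, SE 0.35, adjusted p = 0.00325; 2.70 in HT). Pkhd1l1, a large membrane protein gene, was at 18.2, 17.8 and 27.1 CPM and then at 290, 126 and 148 CPM (log2 fold change 3.20, SE 0.32). Fat4, an atypical cadherin, was at 9.25, 7.75 and 29.7 CPM and then at 262, 108 and 122 CPM. Its log2 fold change was 3.44 (SE 0.51), and 4.28 without E16.5 KO replicate 3. Faxc (3.16, and 4.21 without that library), Apob (2.55, and 3.33), Nrap (2.5), Dsp (2.35), the desmoplakin gene, and Grik5 (2.12) completed the group. HT cells had changes of 2.01 to 3.48 in these 8 genes.

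The 12 genes with the largest fitted increases were near silent at E16.5, where 3 counts correspond to 0.256 to 0.320 CPM. They were Cplx3, Cts3, F9, Fam155a, Fezf2, Galntl6, Ifi205, Kctd8, Mup5, Ntng1, Pcdh10 and Ptprc, at 0 to 0.985 CPM at E16.5 and 1.39 to 13.1 CPM at E18.5. Their fitted fold changes rest on a few counts and on the prior count, so levels are given. Genes this low at E16.5 enter the test mostly through their E18.5 counts. Ptprc (CD45), a marker of blood cells, was at 0, 0.199 and 0.328 CPM and then at 4.09, 3.67 and 4.37 CPM. Pcdh10, a protocadherin, was at 0.201, 0.397 and 0.766 CPM and then at 11.8, 5.76 and 7.41 CPM.

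**Figure D2:**
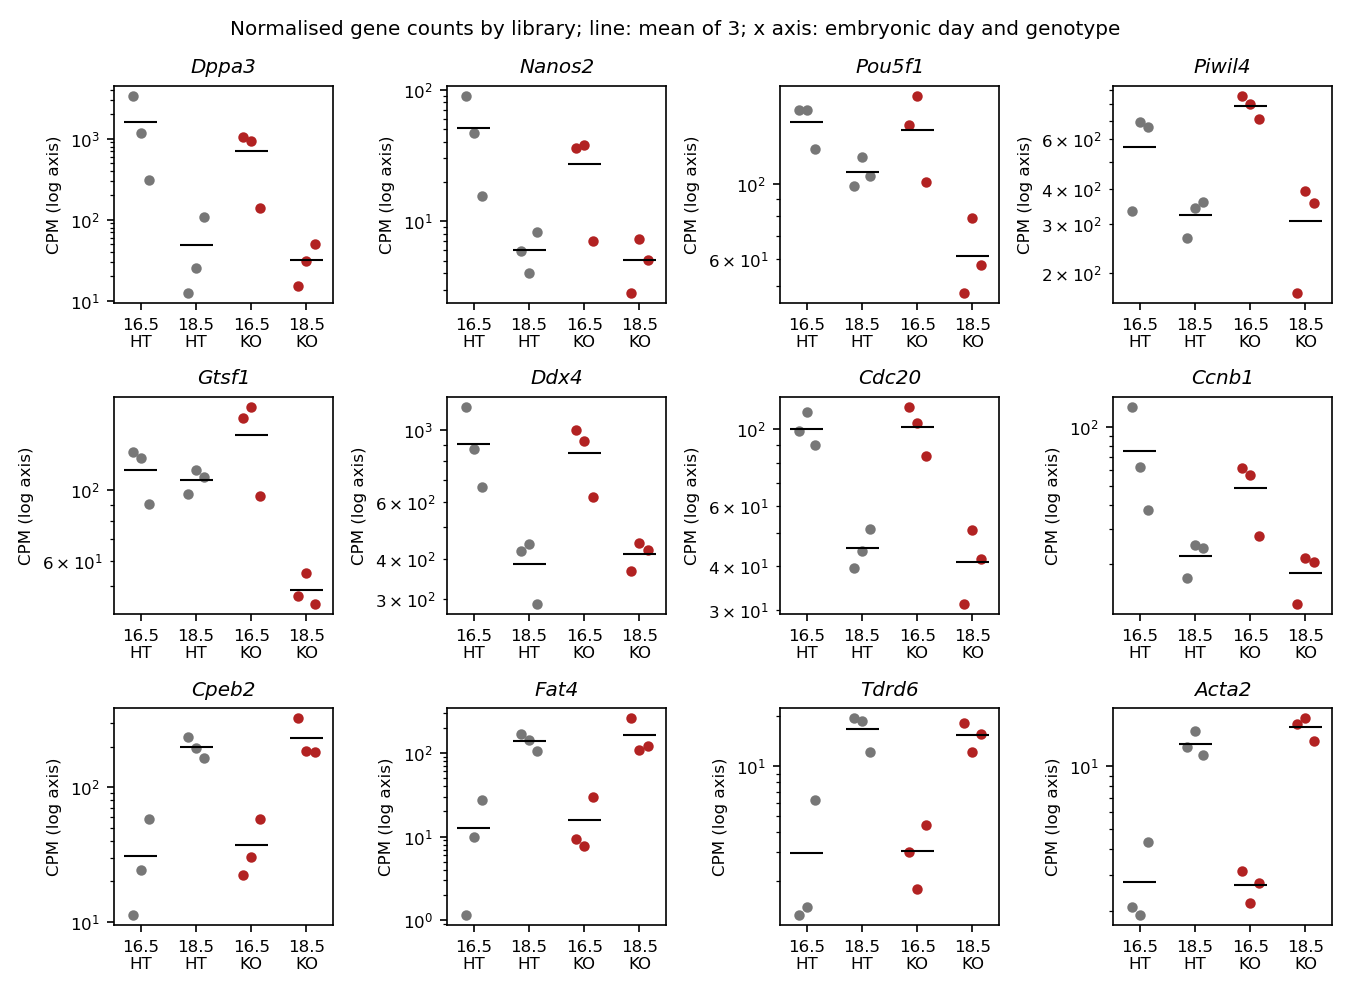
Each point is 1 library, with its normalised count (CPM) on a log axis; the x axis gives embryonic day and genotype (HT in grey, KO in red), and lines mark the mean of 3. Dppa3 lay at 141 to 1050 CPM in KO cells at E16.5 and at 15.4 to 49.6 CPM at E18.5, and Cpeb2 at 22.3 to 58.2 CPM and 182 to 327 CPM.

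Genes of fetal germ cells and pluripotency fell more often than they rose. Of 27 tested 12 fell and 2 rose, beside 18.0% lower and 19.6% higher over all genes. The list's median on the log2 scale was -0.73, beside 0.04 over all genes. Leaving out 1 library gave 10 to 19 lower and 1 to 4 higher, with 19 and 4 without E16.5 KO replicate 3. The members that fell included Dppa3, Dnd1, Ifitm3, the germ cell RNA-binding gene Nanos3 (-2.81, SE 0.62) and the pluripotency gene Tcl1 (-2.17, SE 0.51). Pou5f1, whose promoter drives the sorted reporter, is in this list and among the germ cell markers. It held 149, 181 and 101 CPM at E16.5 and 47.6, 79.0 and 57.4 CPM at E18.5, with no overlap (log2 fold change -1.18, SE 0.24, adjusted p = 0.00625; -0.47 in HT, adjusted p = 0.0934). Tbx3, a T-box factor, rose from 1.51, 1.39 and 1.64 CPM to 16.9, 8.64 and 6.6 CPM. The list's summed level fell outside its E16.5 range of 2030 to 3980 CPM, to 904 to 1330 CPM.

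Of 30 genes of male germ cell commitment and stem cells 11 fell and 6 rose, beside 18.0% lower and 19.6% higher over all genes. The median was -0.16, and 0.07 with upper quartile factors, so no direction is given for the list. Leaving out 1 library gave 8 to 14 lower and 3 to 7 higher. Nanos2, which directs fetal germ cells to the male fate, was at 35.9, 38.1 and 7.0 CPM and then at 2.83, 7.35 and 5.08 CPM. E16.5 KO replicate 3 was below 1 E18.5 library; the log2 fold change was -2.36 (SE 0.55, adjusted p = 0.0103) and did not pass without E18.5 KO replicate 1. Pax7, a marker of some spermatogonial stem cells, rose from 1.21, 2.19 and 2.96 CPM to 8.71, 9.04 and 5.69 CPM. Shisa6, another stem cell marker, rose by 1.65 (SE 0.40; 2.34 without E16.5 KO replicate 3).

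Cell cycle genes were lower in the older KO cells. Of 37 tested 19 fell, 11 of them without any 1 library, and 1 rose (median -0.59; -1.12 in HT, where 13 fell), beside 18.0% lower over all genes. The number that fell was 12 and 11 without E16.5 KO replicates 1 and 2, 29 without replicate 3 of that age, and 12 with upper quartile factors. Cdc20, which starts anaphase, was at 116, 104 and 83.8 CPM at E16.5 and at 31.1, 50.9 and 41.9 CPM at E18.5. The ages did not overlap (log2 fold change -1.25, SE 0.21, adjusted p = 0.0038). Ccnb1, the mitotic cyclin B1, held 61.9, 57.2 and 27.6 CPM and then 12.4, 21.3 and 20.3 CPM (log2 fold change -1.40, SE 0.31). Birc5 (-1.55), Cenpa (-1.26) and the replication helicase subunit Mcm5 (-1.18) fell as well. The member that rose was E2f2, from 4.12, 2.09 and 4.93 CPM to 11.9, 9.73 and 12 CPM. Mki67, a marker of cycling cells named after its values were seen, overlapped between the ages in KO cells (95.4, 77.3 and 79.2 CPM against 74.8, 105 and 116 CPM; log2 fold change 0.27, adjusted p = 0.261). In HT cells Mki67 was at 502, 151 and 84.2 CPM at E16.5 and 78.1 to 87.7 CPM at E18.5, and the difference between the genotypes did not pass (1.82, SE 0.66, adjusted p = 1).

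Promoters are shown for cell cycle genes that fell together, as the 250 bases before the start of each gene in RefSeq (build GRCm38.p6), written 5′ to 3′ on the gene's strand. Capitals mark CCAAT, the box bound by the factor NF-Y, or its complement ATTGG, and TTTGAA, an element known from promoters of late cell cycle genes, searched on both strands; matches of the motifs did not need to be apart from each other.
Ccnb1: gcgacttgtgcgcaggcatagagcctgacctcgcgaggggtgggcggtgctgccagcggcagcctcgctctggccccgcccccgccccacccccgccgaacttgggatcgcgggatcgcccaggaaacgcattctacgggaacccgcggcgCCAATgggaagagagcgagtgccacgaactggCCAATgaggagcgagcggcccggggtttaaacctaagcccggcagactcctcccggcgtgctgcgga
Cdc20: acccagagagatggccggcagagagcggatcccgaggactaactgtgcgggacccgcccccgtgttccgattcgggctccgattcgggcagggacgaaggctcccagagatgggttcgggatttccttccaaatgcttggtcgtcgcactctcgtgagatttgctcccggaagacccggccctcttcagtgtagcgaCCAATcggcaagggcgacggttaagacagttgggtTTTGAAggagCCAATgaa
Cenpa: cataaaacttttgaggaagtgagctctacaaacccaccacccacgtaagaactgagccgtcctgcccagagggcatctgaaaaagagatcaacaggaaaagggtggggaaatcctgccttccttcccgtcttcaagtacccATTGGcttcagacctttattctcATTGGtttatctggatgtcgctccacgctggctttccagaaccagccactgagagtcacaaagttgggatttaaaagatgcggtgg
The Ccnb1 window is chr13:100786487-100786736, minus strand, the Cdc20 window chr4:118437344-118437593, minus strand and the Cenpa window chr5:30666636-30666885, plus strand. Ccnb1 holds CCAAT 99 and 67 bases before its start, and Cdc20 holds CCAAT at 53 and 8 bases and TTTGAA at 18 bases before its start. Of the 16 cell cycle genes that fell and have a RefSeq promoter, 14 (87.5%) held CCAAT, as did 76.7% of the 30 tested list members with one and 39.3% of the 13387 tested genes with one. For TTTGAA the shares were 18.8%, 26.7% and 13.9%. The genes shown were picked by name rather than by a rule, and each holds CCAAT or ATTGG. A match describes letters only.

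Of 22 inhibitors of the cell cycle 3 rose and 4 fell (median -0.04, and 0.20 with upper quartile factors), near or under the shares over all genes (19.6% higher, 18.0% lower). Leaving out 1 library gave 1 to 3 higher and 1 to 8 lower. Rb1, the retinoblastoma gene, rose from 164, 135 and 135 CPM to 337, 190 and 217 CPM (log2 fold change 0.82, SE 0.21). Its relative Rbl1 fell by 0.88 (SE 0.21). Genes of DNA repair and chromatin fell in 14 of 26 cases and rose in 0 (median -0.59), and 10 to 17 fell when 1 library was left out. Among those that fell were Rpa2 (-1.25), of the complex that binds single-stranded DNA, and the helicase Blm (-1.17).

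The piRNA pathway was lower at E18.5 in cells that lack Tex15. Of 29 genes tested 20 fell, 14 of them without any 1 library, and 1 rose, beside 18.0% lower and 19.6% higher over all genes. The list's median was -0.67, and -0.53 in HT, where 9 fell and 1 rose. Leaving out 1 library gave 15 to 22 lower genes, and upper quartile factors gave 15. The list's summed level was 12000 to 13600 CPM at E16.5 and 6630 to 9080 CPM at E18.5. Piwil4 (MIWI2), the nuclear PIWI protein, was at 857, 800 and 709 CPM at E16.5 and at 170, 392 and 357 CPM at E18.5. All 3 E16.5 libraries lay above the E18.5 ones, with E18.5 KO replicate 1 the lowest (log2 fold change -1.32, SE 0.26, adjusted p = 0.00598; -0.78 in HT, adjusted p = 0.084). Asz1, a protein of the germ granule on mitochondria, was at 298, 293 and 180 CPM and then at 60.5, 90.9 and 88.7 CPM (log2 fold change -1.64, SE 0.23). Tdrd5, a Tudor protein of piRNA production, fell by 1.33 (SE 0.23) and Ddx4, the germ cell RNA helicase, by 1.00 (SE 0.18). Gtsf1l was at 16.1, 14.7 and 3.83 CPM and then at 0, 1.39 and 0.203 CPM, where 3 counts are 0.322 to 0.352 CPM. Tdrd6, a Tudor protein of later spermatogenesis, was the member that rose, from 3.02, 1.79 and 4.38 CPM to 18.3, 12.2 and 15.6 CPM (log2 fold change 2.37, SE 0.35; 2.52 in HT). Piwil2 (MILI), the cytoplasmic PIWI protein, was at -0.35 (SE 0.14, adjusted p = 0.0646).

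Gtsf1, a partner of PIWI proteins, had unlike values in the 2 genotypes. KO cells held 169, 183 and 96.1 CPM at E16.5 and 46.6, 54.8 and 43.8 CPM at E18.5, without overlap (log2 fold change -1.58, SE 0.23, adjusted p = 0.00325). HT cells held 132, 126 and 90.6 CPM and then 97.1, 116 and 110 CPM (-0.09, adjusted p = 0.732). The difference was -1.52 (SE 0.32) and did not pass the test over all genes (adjusted p = 1).

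Germline genes known to be silenced by promoter methylation fell in 16 of 25 cases and rose in 0 (median -0.56, also -0.56 in HT). Over all genes 18.0% fell. Leaving out 1 library gave 10 to 16 lower, with 10 without E16.5 KO replicate 2, and upper quartile factors gave 12. These germline genes overlap the piRNA and meiotic lists. Stk31, a Tudor protein gene, fell by 1.09 on the log2 scale (SE 0.19) and Syce1, a synaptonemal complex gene, by 1.47 (SE 0.22). Sycp3, an axis protein of meiotic chromosomes, was at 115, 107 and 36.7 CPM at E16.5 and at 42.0, 28.0 and 32.4 CPM at E18.5, where E16.5 KO replicate 3 was below 1 E18.5 library. It passed with a log2 fold change of -1.30 (SE 0.35) and did not without E18.5 KO replicate 2 or 3. Promoters of 3 members that fell are shown, since germline genes of this kind often carry the E-box CACGTG, bound by MAX complexes. CACGTG is in capitals, as are CCAAT or ATTGG.
Stk31: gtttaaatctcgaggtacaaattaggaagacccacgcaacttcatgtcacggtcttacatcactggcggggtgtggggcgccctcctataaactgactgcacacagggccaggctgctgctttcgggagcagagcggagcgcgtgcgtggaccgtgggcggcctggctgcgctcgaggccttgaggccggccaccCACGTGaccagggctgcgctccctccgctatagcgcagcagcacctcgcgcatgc
Ddx4: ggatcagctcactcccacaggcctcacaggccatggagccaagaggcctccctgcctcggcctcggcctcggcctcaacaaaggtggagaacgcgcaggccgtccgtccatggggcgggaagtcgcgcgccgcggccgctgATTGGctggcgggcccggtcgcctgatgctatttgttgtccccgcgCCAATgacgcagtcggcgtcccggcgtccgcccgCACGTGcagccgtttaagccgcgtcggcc
Sycp3: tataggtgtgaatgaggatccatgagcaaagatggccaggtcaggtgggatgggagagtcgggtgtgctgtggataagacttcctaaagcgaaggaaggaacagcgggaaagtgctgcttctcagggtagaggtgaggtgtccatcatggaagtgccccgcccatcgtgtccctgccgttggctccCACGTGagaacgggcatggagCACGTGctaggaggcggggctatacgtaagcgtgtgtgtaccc
The windows are chr6:49395289-49395538, plus strand for the first of the 2 Stk31 starts, chr13:112652311-112652560, minus strand for Ddx4 and chr10:88459337-88459586, plus strand for Sycp3. CACGTG reads the same on both strands and lies 55 bases before the start of Stk31. It was found in 9 of the 16 genes that fell (56.2%), in 48.0% of the 25 list members tested and in 9.06% of all tested genes with a promoter. In the piRNA list 41.2% of 17 genes that fell and have a promoter held it, against 36.4% of 22 members.

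Of 21 genes of the DNA methylation machinery 5 fell and 2 rose (median -0.36), near the shares over all genes (18.0% lower, 19.6% higher). The number that fell was 2 without E16.5 KO replicate 1 or 2 or E18.5 KO replicate 3, 3 without E18.5 KO replicate 2 and 11 without E16.5 KO replicate 3. Dnmt3l, the cofactor of new methylation in germ cells, was at 316, 311 and 340 CPM at E16.5 and at 149, 227 and 197 CPM at E18.5 (log2 fold change -0.71, SE 0.17, adjusted p = 0.0107). Its methyltransferase partner Dnmt3a, named after its values were seen, was at 1410 to 1470 CPM at E16.5 and at 1200 to 1280 CPM at E18.5 (-0.16, adjusted p = 0.311). The ages of Dnmt3a did not overlap although the test did not pass. Tet3, a 5-methylcytosine oxidase, rose from 140, 147 and 259 CPM to 358, 313 and 323 CPM (log2 fold change 0.90, SE 0.23). Tet1 passed at -1.19 with all libraries and in none of the fits that left out E16.5 KO replicates 1 or 2 or any E18.5 KO library. Genes of H3K9 methylation and KRAB repression fell in 15 of 30 cases and rose in 1 (median -0.49). The number that fell was 9 and 8 without E16.5 KO replicates 1 and 2, 9 without E18.5 KO replicate 3, 22 without E16.5 KO replicate 3, and 9 with upper quartile factors. The chromatin remodeller Atrx was at 760, 642 and 373 CPM and then at 287, 229 and 228 CPM (log2 fold change -1.21, SE 0.23). Pphln1, of the HUSH complex, fell by 1.12 and the variant histone genes H3f3b and H3f3a by 0.89 and 0.88.

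Of 28 imprinted genes 10 rose and 2 fell (median 0.43 in KO and in HT, where 0 rose and 1 fell), beside 19.6% higher over all genes. Without E16.5 KO replicate 1 or 2, 6 rose, and in the fit of the 12 HT and KO libraries 3 rose and 1 fell. Mest was at 20.7, 20.9 and 21.8 CPM and then at 78.3, 35.5 and 50.8 CPM (log2 fold change 1.41, SE 0.26). Plagl1, which encodes a zinc finger factor, rose by 1.41 (SE 0.28) and Dlk1, a Notch-like ligand, by 1.35 (SE 0.27). H19 was at -1.24 and passed only with E16.5 KO replicates 1 and 2 and E18.5 KO replicates 1 and 3 all present. Of 23 Nodal and activin genes 6 rose and 0 fell, beside 19.6% higher over all genes. The list's median was 0.62 in KO and -0.05 in HT, and the difference of the age changes passed for 0 of these genes. Without E18.5 KO replicate 1 the KO median was 0.16, and without replicate 3 of that age 0.25. Inhba, the activin subunit, was at 4.22, 3.18 and 6.57 CPM and then at 16.6, 12.6 and 11.6 CPM (log2 fold change 1.58, SE 0.32). Only Inhba passed without any 1 library. The number that rose was 3 and 2 without E16.5 KO replicates 1 and 2, and 2 without E18.5 KO replicate 1 or 3.

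Genes of the interferon response and nucleic acid sensing had 7 of 32 higher and 7 lower (median -0.24), near the shares over all genes (19.6% and 18.0%). Higher and lower genes numbered 11 and 12 without E16.5 KO replicate 3, 4 and 4 without replicate 1 and 5 and 3 without replicate 2 of that age. They numbered 4 and 2, 6 and 4, and 3 and 3 without E18.5 KO replicates 1, 2 and 3. Ifi44, an interferon-stimulated gene, was at 4.93, 6.16 and 8.10 CPM and then at 19.9, 22.1 and 23.6 CPM (log2 fold change 1.82, SE 0.25; 1.03 in HT). Ifih1 (MDA5), a sensor of double-stranded RNA, rose by 1.58 (SE 0.35; 1.31 in HT) and Rsad2 by 1.98 (SE 0.36). Bst2, which tethers virus particles to cells, fell from 25.8, 26.6 and 16.5 CPM to 3.88, 9.33 and 7.72 CPM. Of 27 stress and immediate early genes 7 fell and 1 rose, beside 18.0% lower over all genes (6 to 11 lower when 1 library was left out, with 11 without E16.5 KO replicate 3). Hspa8, a chaperone of this list, was at 367, 351 and 219 CPM and then at 57.9, 131 and 98.1 CPM (log2 fold change -1.66, SE 0.29). Of 31 respiratory chain genes 11 fell and 0 rose (median -0.39), such as Sdha (-0.86). The number that fell was 7 without E16.5 KO replicate 2, 6 without E18.5 KO replicate 3, 18 without E16.5 KO replicate 3, and 7 with upper quartile factors or in the fit of 12 libraries.

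The remaining lists are given by their counts, beside 18.0% lower and 19.6% higher over all genes. Meiotic prophase genes had 8 of 30 lower and 2 higher, p53 targets 9 of 26 and 3, Polycomb genes 7 of 30 and 1, differentiating spermatogonia genes 3 of 21 and 5, glycolysis genes 5 of 23 and 5, and replication-dependent histones 1 of 19 and 1. Leaving out 1 library gave 4 to 11 lower meiotic genes, 3 to 10 lower p53 targets, 3 to 9 lower Polycomb genes, 1 to 10 higher genes of differentiating spermatogonia, and 1 to 7 higher and 2 to 7 lower glycolysis genes. Each of these ranges has its highest value without E16.5 KO replicate 3. The medians of the meiotic, p53 and Polycomb lists were below 0 (-0.18, -0.19 and -0.11) and above 0 with upper quartile factors (0.05, 0.04 and 0.11). Tex14, of the bridges between germ cells, fell from 908, 891 and 548 CPM to 260, 295 and 298 CPM (log2 fold change -1.42, SE 0.19). Perp, a p53 target of cell adhesion, rose by 2.38 (SE 0.37), and the D-type cyclin Ccnd2 by 1.17 (SE 0.26).

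Among markers of other testis cells, those of stromal and endothelial cells rose more often than all genes (19.6%) in these counts. Of 16 stromal markers 8 rose and 0 fell (median 1.38; 1.58 in HT), and of 11 endothelial markers 6 rose and 0 fell (2 rose in the fit of 12 libraries). Leaving out 1 library gave 6 to 12 stromal and 4 to 8 endothelial markers that rose. Of 12 Sertoli markers 3 rose (1 to 4 when 1 library was left out) and of 9 Leydig markers 2 (0 to 4), near the share over all genes. Of 12 macrophage markers 3 rose and 3 fell (1 to 5 and 1 to 3 when 1 library was left out). Acta2, smooth muscle actin, was at 3.12, 2.19 and 2.74 CPM and then at 16.0, 17.1 and 13.2 CPM. The summed levels were 530 to 724 CPM at E16.5 and 623 to 691 CPM at E18.5 for stromal markers and 128 to 188 CPM and 224 to 296 CPM for endothelial markers. For Sertoli markers they were 228 to 247 CPM and 201 to 241 CPM, for Leydig markers 114 to 127 CPM and 120 to 147 CPM, and for macrophage markers 60.9 to 119 CPM and 111 to 145 CPM. The globin genes Hba-a1, Hba-a2, Hbb-b1 and Hbb-b2 were at 0 in all KO libraries, as was the Leydig marker Ren1. Of the 4 red blood cell markers tested 2 rose (0 to 4 when 1 library was left out). Germ cell markers summed to 8370 to 10700 CPM and 5260 to 6610 CPM, so the labelled cell type was present at both ages. Of these 14 markers 11 fell (median -0.88), and 8 to 12 when 1 library was left out. In bulk libraries a change in the share of a cell type and a change in RNA per cell cannot be told apart, and the part of these markers in the gene results was not tested.

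**Figure D3:**
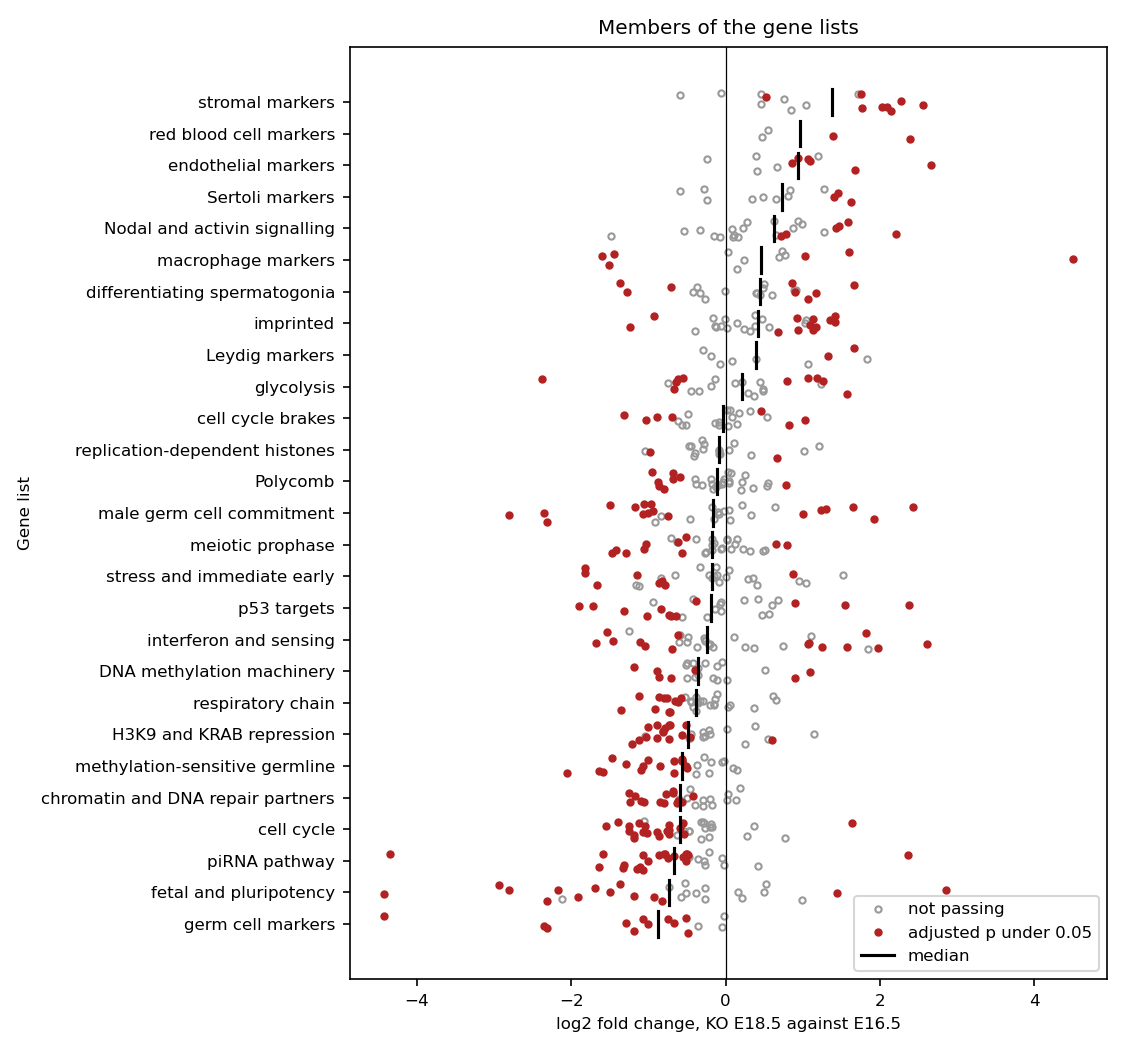
Each point is 1 gene of a list, with its log2 fold change in KO cells (E18.5 against E16.5) on the x axis; filled red points passed an adjusted p of 0.05, and black lines mark list medians. Medians run from -0.88 for germ cell markers to 1.38 for stromal markers, beside 0.04 over all genes.

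Among repeat families the KO cells had 14 of 52 past the test (26.9%), of which 13 (25.0%) were higher and 1 (1.92%), rRNA, lower (-0.41, SE 0.12). Family values are alignments per gene read. L1, the LINE family that still moves in mice, was at 29.9, 28.9 and 47.1 in the E16.5 KO libraries and at 89.4, 75.6 and 109 in the E18.5 KO libraries. E16.5 KO replicate 3 was the highest of its age and stayed below all E18.5 libraries. The log2 fold change was 1.41 (SE 0.32, adjusted p = 0.000189), and 1.64 without that library. HT cells held 24.9, 24.6 and 25.8 and then 25.3, 23.5 and 26.5, so the HT ages overlapped (0.02, SE 0.09). The age change of KO minus that of HT was 1.37 (SE 0.31, adjusted p = 0.000409), and it passed whichever of the 12 libraries was left out (1.22 to 1.63).

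ERV1, which holds retroviruses of the murine leukaemia type, rose in KO cells from 0.0791, 0.0811 and 0.114 to 0.143, 0.126 and 0.141 alignments per gene read (log2 fold change 0.62, SE 0.14). HT cells had 0.0373, 0.0587 and 0.0558 and then 0.0402, 0.0371 and 0.0438 (-0.31, adjusted p = 0.137). The difference was 0.91 (SE 0.20, adjusted p = 0.000236). L1 and ERV1 were the 2 of 52 families (3.85%) whose age change differed between the genotypes. ERVK, the family of intracisternal A particles (IAP), was at 2.76, 2.90 and 3.56 in KO cells at E16.5 and already above the HT libraries of that age (1.20 to 1.47). It was at 2.48, 2.62 and 2.72 at E18.5 (-0.20, SE 0.21, adjusted p = 0.478), so the KO ages did not overlap although the test did not pass. In HT it fell by 0.62 (SE 0.13), and the difference did not pass (0.40, SE 0.24, adjusted p = 0.867).

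Some of the families rose in both genotypes. Satellite, the tandem repeats of centromeres and their flanks, was at 0.00316, 0.00325 and 0.00345 and then at 0.00535, 0.00499 and 0.00602 in KO cells (log2 fold change 0.77, SE 0.12; 1.16 in HT). The family named Y-chromosome had the largest change, 2.34 in KO (SE 0.16) and 2.20 in HT. The smaller families LTR (0.67), MER1_type? (0.65), Other (0.63), NA (0.60), Gypsy? (0.51), hAT? (0.48), Gypsy (0.45), Tip100 (0.44) and AcHobo (0.33) rose in KO cells. Of these, LTR, Gypsy?, hAT?, Gypsy, Tip100 and AcHobo did not pass in every fit that left out 1 library, nor did rRNA. NA (0.10, adjusted p = 0.656) and hAT? (0.38, adjusted p = 0.0725) did not pass in HT. The SINE families Alu (-0.02), B2 (0.34) and B4 (0.10) and the LTR families ERVL (0.27) and MaLR (0.26) did not pass.

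The scaling bears on the other families. L1 made up 86.6% to 89.7% of the family alignments in KO cells at E16.5 and 94.5% to 95.7% at E18.5. With the family totals as library sizes 2 families were higher and 49 lower, L1 stayed higher at 0.11 and ERV1 was at -0.67. With totals that leave L1 out, an alternative chosen after seeing the data, L1 was at 1.43 and ERV1 at 0.64, and their differences from HT were 1.28 and 0.82, all past the threshold. The family fits took the spread of families of like abundance, so an SE or p does not measure a family's own replicate spread.

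**Figure D4:**
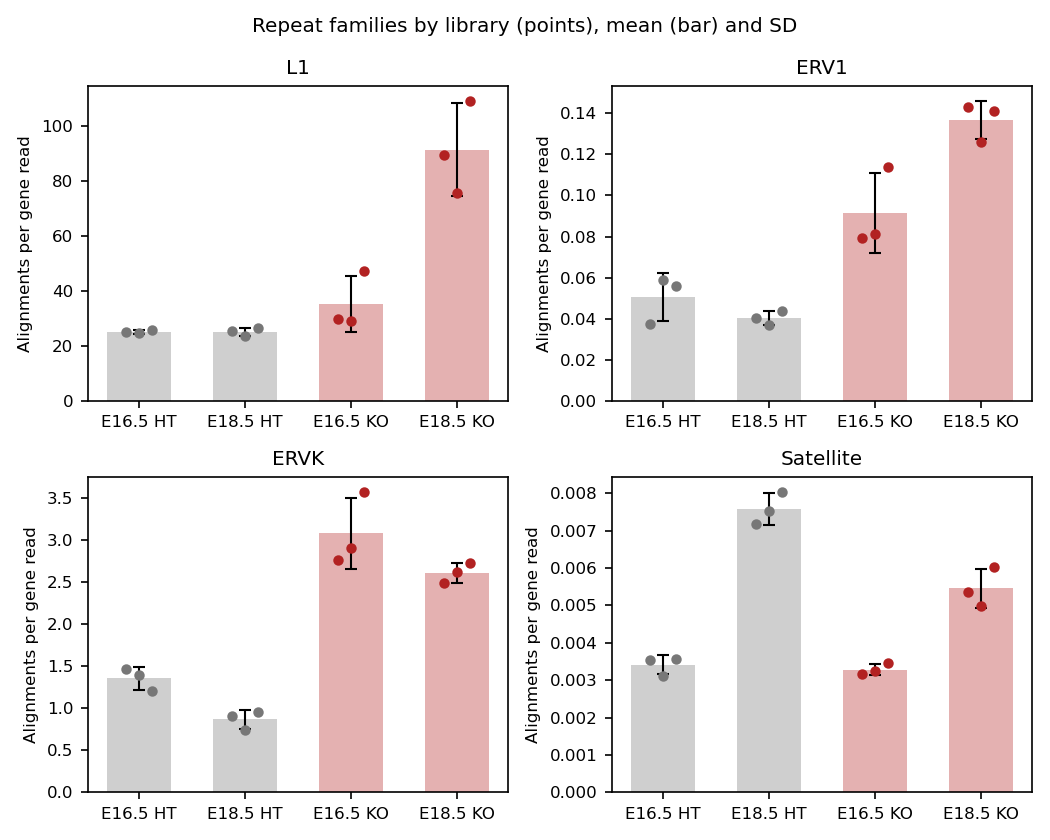
Each panel shows 1 repeat family, with alignments per gene read on the y axis from 0; points are libraries, bars the mean of 3 and whiskers the SD, for HT (grey) and KO (red) at both ages. L1 in KO cells at E18.5 (75.6 to 109) and ERV1 (0.126 to 0.143) lie above the other 3 groups, ERVK is higher in KO than in HT at both ages, and Satellite is higher at E18.5 in both genotypes.

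Single repeat names give a further view, counted apart from the family alignments. On the CPM scale of the gene counts, L1Md_A, a young L1 subfamily with intact members, was at 3020, 2980 and 4480 in KO cells at E16.5 and at 10300, 8070 and 10200 at E18.5. The ages were well apart (log2 fold change 1.49, SE 0.13, adjusted p = 2.76e-19). As for families, the KO fit of names took most of its spread from other names (4 residual and 164 prior degrees of freedom). An SE or p of a name therefore does not measure its own replicate spread. With the totals of the names as library sizes the same edgeR test gave L1Md_A 1.16 and an adjusted p of 2.94e-05. In HT cells L1Md_A was at 2480 to 3140 and then 2870 to 3250 (0.15, SE 0.19). The difference, 1.32 (SE 0.23, adjusted p = 0.00527), passed without any 1 of the 12 libraries and with the totals of the names as library sizes (1.16). L1Md_Gf, another young subfamily, was at 258, 235 and 525 and then at 1010, 923 and 1200 (1.66, SE 0.15; 0.59 in HT). L1Md_T, another of the young subfamilies, was at 15000, 26000 and 22100 and then at 27100, 27000 and 27700 (0.42, SE 0.12; -0.12 in HT). It was the young name that did not pass with the totals of the names as library sizes (0.08, adjusted p = 0.775), and it did not pass without E16.5 KO replicate 1 (0.18) or E18.5 KO replicate 2 or 3.

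Over all names, 629 of 1115 passed in KO cells (56.4%), 621 higher (55.7%) and 8 lower (0.717%), and the median over all names was 0.38 on the log2 scale. The share of counts in repeat names was also higher at E18.5 in both genotypes, as given above. With the totals of the names as library sizes the median was 0.05, and 116 names were higher and 36 lower. HT cells had 175 higher (15.8%) and 4 lower names (0.361%) and a median of 0.32. In KO cells 6 of 6 young L1 names rose (median 0.98; 0.38 in HT, 1 of 6), and 5 of them rose with the totals of the names. Of 28 other rodent L1 names 28 rose (0.68; 0.45 in HT, 7 of 28), whereas 19 of 74 ancient L1 names did (0.22; 0.25 in HT). On the names' own totals 14 of the 28 rose, and 2 ancient names rose and 1 fell (median -0.12). On the main scaling 285 of the 621 higher names passed without any 1 library. Among them were 5 young, 25 other rodent and 6 ancient L1 names.

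Retroviral names were also higher in KO cells at E18.5. All 5 ETn and MusD names rose (median 1.01; 0.49 in HT), also with the totals of the names. Of 16 IAP names 13 rose (0.65; 0.08 in HT), of 10 names of the murine leukaemia virus and VL30 type 9 rose (0.84; 0.16 in HT), and of 9 MMERVK10C and RLTR10 names 9 rose (0.63; 0.24 in HT). With the totals of the names 8 IAP names, 5 of the murine leukaemia virus and VL30 type and 3 of MMERVK10C and RLTR10 rose. On the main scaling the share higher over all names was 55.7%. There 5 ETn and MusD, 10 IAP and 4 MMERVK10C and RLTR10 names passed without any 1 library. So did 9 names of the murine leukaemia virus and VL30 type. ETnERV3-int was at 126, 126 and 282 and then at 499, 482 and 598 (1.61, SE 0.15), and it also rose in HT (1.18). IAPEY_LTR was at 53, 48.5 and 74.4 and then at 168, 152 and 174 (1.53, SE 0.14; 0.80 in HT). The common IAP names did not move with these: IAPEz-int was at 1340, 1490 and 2010 and then at 1740, 1740 and 1630 (0.12, adjusted p = 0.471), and IAPLTR1_Mm was at 0.11 (adjusted p = 0.481). The differences of these names from HT did not pass. The ERVK family, which holds IAP, was lower in all E18.5 KO libraries than at E16.5 (-0.20, not past the threshold), unlike most IAP names. Why the family alignments and the names differ was not tested.

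The other names whose age change differed from HT were MMETn-int (1.08, SE 0.24) and MMERGLN-int (1.07, SE 0.23), each with an adjusted p of 0.0479, so that 3 of 1133 (0.265%) passed. MMETn-int, an internal part of ETn elements, was at 1020, 992 and 1590 and then at 1960, 2080 and 2730 in KO cells, against 845 to 1050 and 766 to 898 in HT. MMERGLN-int was at 1140, 1190 and 1650 and then at 2200, 2010 and 2090, against 693 to 1080 and 668 to 746 in HT. With the totals of the names as library sizes neither passed (0.93 and 0.90). Neither passed without E16.5 HT replicate 2, E16.5 KO replicates 1 or 2, any E18.5 HT library or E18.5 KO replicates 2 or 3, and MMERGLN-int also not without E18.5 KO replicate 1.

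Of 4 satellite names 3 rose in KO and 3 in HT, whereas MMSAT4 was at 0.04 (adjusted p = 0.781) and at -0.17 in HT. GSAT_MM, the major satellite of the flanks of mouse centromeres, was at 16.5, 17.7 and 461 in KO cells at E16.5 and at 2590, 3250 and 1590 at E18.5. E16.5 KO replicate 3 was far above the other E16.5 KO libraries and below all E18.5 ones. The fitted log2 fold change was 3.94 (SE 0.31, which does not measure the spread of its own replicates), and 7.18 without that library. In HT cells GSAT_MM was at 4.16, 26.9 and 2870 and then at 15900, 16800 and 16500 (4.11), which is above every KO library at E18.5. MurSAT1 was at 3.02, 5.37 and 17.0 and then at 90.0, 47.3 and 76.9 (3.13, SE 0.21; 3.42 in HT). Of 89 other RLTR names 80 rose (0.51; 0.36 in HT) and of 97 MaLR names 72 (0.38; 0.32 in HT), against 18 and 2 with the totals of the names. Of 104 DNA transposon names 30 rose (0.21; 0.20 in HT), of 267 simple repeats 121 rose and 2 fell (0.37; 0.32 in HT), and of 3 MERVL names 2 rose. Under that scaling 4 DNA transposons rose and 8 fell (median -0.12), 10 simple repeats rose and 7 fell (0.03), and 0 MERVL names rose. On the main scaling the share higher over all names was 55.7%. There 52 other RLTR, 8 MaLR, 10 DNA transposon, 37 simple repeat and 2 MERVL names were higher without any 1 library. Rodent SINE names were near 0 (median 0.07), with 3 of 27 higher and 0 with the totals of the names. The names that fell included those of small structural RNAs: U14 was at 12.2, 11.0 and 10.8 and then at 3.46, 5.16 and 4.16 (-1.37, SE 0.24; -1.41 in HT), and U8, U5 and U17 were at -1.21, -1.0 and -0.53.

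**Figure D5:**
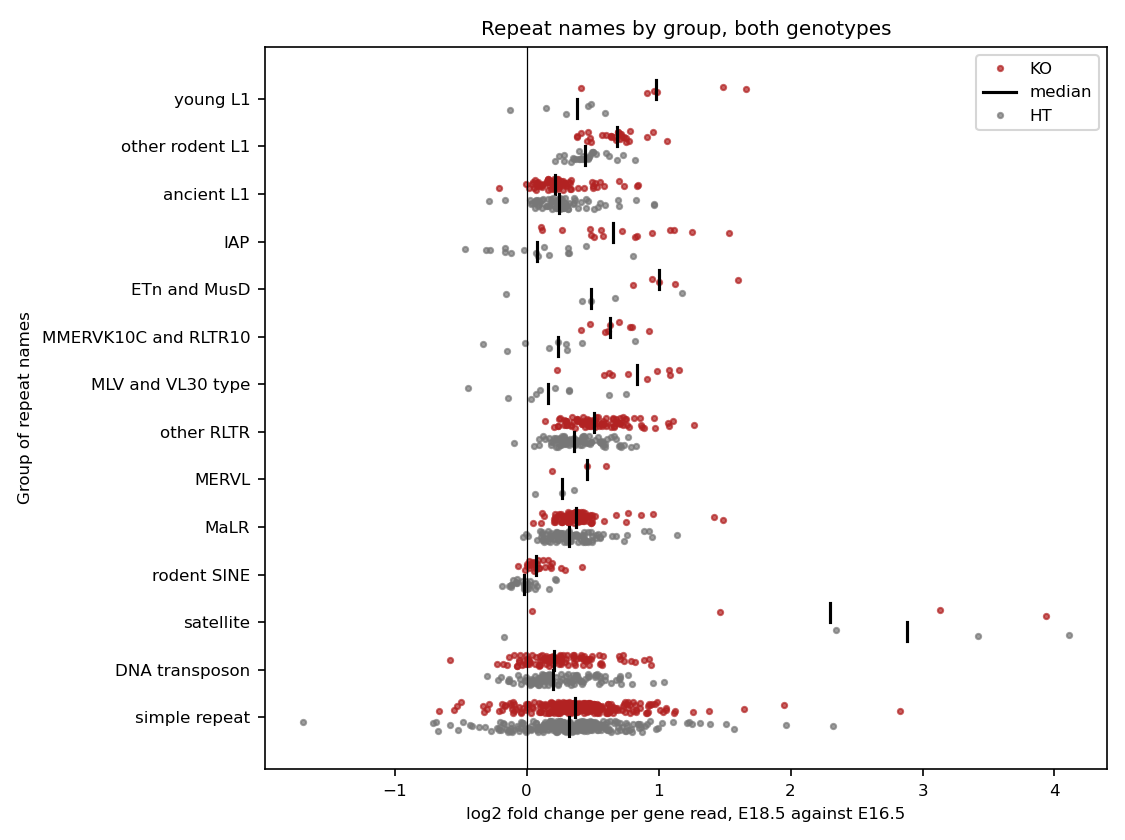
Each point is 1 repeat name, placed by group; the x axis is the log2 fold change of E18.5 against E16.5 per gene read, in KO (red) and HT (grey), and black lines mark medians. Young L1 names have medians of 0.98 in KO and 0.38 in HT, ancient L1 names of 0.22 and 0.25, and satellite names of 2.30 and 2.88.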

How the data were processed

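Gene, repeat name and repeat family counts were deposited by the authors as whole numbers, 1 table per age and kind; per the submitters' processing notes STAR, Bowtie, featureCounts, edgeR and the mm9 build were used, with roles and versions not given in the sources used here. Per the labels, RNA was taken with a PicoPure kit and amplified with NuGEN Ovation kits. The read tables hold 24495 gene rows and 1217 repeat names. The family tables hold 53 families; their totals are far above those of the read tables, so they were taken to count alignments, of which a read can have many. Reads were not realigned, and gene rows without strand cannot be separated from antisense partners.

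From these counts, edgeR 4.0.16 (R 4.3.3; filterByExpr with minimum count 10 and total 15, TMM, quasi-likelihood fits, two-sided tests, Benjamini-Hochberg over all rows of a kind, threshold 0.05) compared E18.5 with E16.5 in KO, in HT, and the difference of both over 12 libraries. The SE is the log2 fold change divided by the square root of F. Repeats needed 10 counts in 3 libraries and used the gene rows' library sizes. CPM values use TMM factors of the 12 libraries. Fits were tested on simulated data. DESeq2 1.42.0 and limma 3.58.1 were the other tools. Motifs were sought in RefSeq promoters of GRCm38.p6.

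The members and the 27 gene lists were chosen with earlier results of these data known. Genes could be named in each direction as the 12 of largest change where mean log2 CPM reached 1, or the 8 where it reached 6, if the ages did not overlap. Each list could add 6 members that passed, or else 2. Predicted gene models are only counted. Ddx4, Piwil2, Dnmt3a and Mki67 were added after their values were seen. KO and HT samples share replicate numbers, and whether same-numbered samples came from the same litters or preparations is not given in the sources used here. In both genotypes E16.5 replicate 3 stood nearest to the E18.5 libraries on the first principal component (10.2 in KO, -8.51 in HT). It also held the most GSAT_MM of its E16.5 group (461 in KO, 2870 in HT). A structure shared by the KO and HT libraries of an age was not tested. Repeat groups were corrected after the row names were seen. Replicates of a group differed by more than sampling noise (chi-square per degree of freedom 4.37 or more). Intervals and floors of 3 counts cover counting error only.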

Additional observations from a re-analysis of the deposited data

Results flagged for a closer look

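Tests of the difference between the age change in KO and that in HT singled out 5 repeats, because their change from E16.5 to E18.5 differed between the genotypes. For the L1 family the difference was 1.37 on the log2 scale and for the ERV1 family 0.91. For the name L1Md_A it was 1.32, for MMETn-int 1.08 and for MMERGLN-int 1.07. In each of the 5 the KO libraries of E18.5 lay above all other libraries of both genotypes. With the family totals as library sizes the L1 difference was 0.10 and that of ERV1 -0.35. L1 makes up most of those totals, so this scaling sets L1 mostly against itself and lowers other families where L1 rose. With totals that leave L1 out, chosen after seeing the data, the differences were 1.28 for L1 and 0.82 for ERV1. The part of the tables' separate making in these differences was not tested.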

How the results depend on the processing

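The KO gene count stayed within 1.5 times of 6602 under every other normalization, filter, tool and fit tried, and ranged from 3371 to 10533 when 1 library was left out. The HT gene count of 2252 was 452 with upper quartile factors, 1092 with at least 30 counts in 3 libraries, 6707 in the fit of 12 libraries, 5422 with DESeq2, 4318 with limma-voom and 0 to 8545 without 1 library. For the difference of the age changes DESeq2 called 4 genes. Leaving out 1 library gave 7 to 14 KO families, 341 to 678 KO names, 6 to 21 HT families, 1 to 373 HT names, 2 to 4 families and 1 to 32 names for the difference. With the totals of the repeats as library sizes, 51 KO families, 152 KO names, 0 HT names, 51 families and 1 name for the difference passed; limma-voom gave 117 HT names, and family totals without L1, chosen after seeing the data, 36 HT families. The causes were not tested.

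L1 makes up most of the family totals and rose in KO cells, so scaling to these totals lowers the other families by construction. With totals that leave L1 out, 15 KO families were higher and 1 lower past the threshold. Scaled to family totals, 41 of 52 families turned from above to below 0 in KO and 18 in the difference. Among the families named above these were, in KO, ERV1 (-0.67), Other (-0.70), Tip100 (-0.88), NA (-0.71), Gypsy (-0.87), Gypsy? (-0.78), LTR (-0.67), AcHobo (-1.01), Satellite (-0.57), hAT? (-0.84), MER1_type? (-0.69), ERVL (-1.07), MaLR (-1.08), B2 (-1.0) and B4 (-1.25). In the difference they included ERV1 (-0.35), ERVK (-0.87) and NA (-0.80). With the totals of the names it turned for IAPEz-int (-0.21), IAPLTR1_Mm (-0.21) and MMSAT4 (-0.29). Upper quartile factors turned Tex15 (0.0059) and Dnmt3a (0.055), neither past the threshold. Leaving out 1 KO library also turned signs: the range was -0.038 to 0.28 for IAPEz-int and -0.041 to 0.27 for IAPLTR1_Mm (below 0 without E16.5 replicate 1), -0.13 to 0.019 for Alu (above 0 without E16.5 replicate 1 or E18.5 replicate 2) and -0.069 to 0.085 for MMSAT4 (below 0 without replicate 3 of either age).

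Same-numbered KO samples had correlations of their deviations of 0.029, 0.050 and 0.059, and HT samples of -0.049, 0.0018 and -0.132, so the numbers were not taken to pair the samples. Each KO sample correlated best with its own number, a hint from the data only. The replicate block gave 6609 KO genes, 22 KO families, 0 HT genes and 116 HT names.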
